A study of Mus musculus with 14 samples.

Results

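Myelin is the sheath of stacked membrane that oligodendrocytes wrap around axons in the brain. The 9 myelin genes described here (Mbp, Mog, Mag, Mobp, Cnp, Ermn, Cldn11, Mal and Opalin) encode proteins of that sheath or of the cell that makes it, and they are read by their symbols from a table of 24421 genes counted in tissue labelled hippocampus from 14 mice. All 9 were present and all 9 passed the filter on low counts, which left 14897 genes. The hippocampus, a cortical structure needed for learning, holds mostly neurons and glia, with myelinated fibre tracts running in and beside it. Oligodendrocytes mature from precursors through a premyelinating stage, and most genes of the sheath are switched on late in that course under transcription factors such as Sox10 and Myrf. LPAR2 is a cell-surface receptor for lysophosphatidic acid, a signalling lipid.

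The groups were 7 naive male mice labelled LPAR2-/- and 7 naive male wild-type (WT) mice, with 1 library of total RNA per mouse after depletion of ribosomal RNA. Both groups carried the same strain label, 129.C57Bl6. Part of exon 2 of Lpar2 is deleted in the mutant. Mutants and controls (C57BL/6 and 129/SvJ mixed) came from separate breeding colonies, so that genotype and colony cannot be told apart. The age is not known, because the labels state 10 to 12 weeks and the deposited design text describes older animals. The study names both the hippocampus and its dentate gyrus as the tissue, and markers of the dentate gyrus, CA1 and CA3 were all counted in every mouse. The libraries labelled LPAR2-/- held 15434620 to 23258949 counts and those of WT mice 16373410 to 21992980. Lpar2 itself went against the label, with 27 to 66 counts in WT libraries and 144 to 234 in those labelled LPAR2-/-, or 2.36 ± 0.676 against 9.55 ± 1.41 CPM (mean ± SD, n = 7 each), where CPM are counts divided by the scaled library size in megareads. The log2 fold change of Lpar2 was 2.01 (SE 0.157, edgeR quasi-likelihood test, Benjamini-Hochberg adjusted p = 8.2e-07). Counts are summed over all exons and cannot show whether the deleted stretch was read, and group names below are those of the labels.

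In mm10, the genome build of the counts, the plus strand carries Mbp, Mobp (chr9:120149742-120176091), Cnp (chr11:100574939-100581739) and Cldn11 (chr3:31149920-31164326). The minus strand carries Mog (chr17:37010740-37023398), Mag (chr7:30899183-30914832), Ermn (chr2:58045115-58052752), Mal (chr2:127633226-127656695) and Opalin (chr19:41063420-41077113). Each span is the whole gene, and only reads on its exons were counted. In the annotation of the count table, no exon of the 9 overlaps an exon of another gene on either strand.

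The sequence just upstream of the start was available in the RefSeq promoter table (GRCm38.p6, the same build as mm10) for 8 of the 9 genes. Mbp had no entry. Promoter sequences are shown because the levels of the genes varied together among mice, as described below, and 3 were chosen for the number of motif matches they hold. The capitals mark the core letters of SOX factors (ACAAAG or ACAATG) and of MYRF (CTGGCAC or CTGGTAC), read on either strand, so that CTTTGT is ACAAAG on the opposite strand. Sequences run 5′ to 3′ on the strand of the gene. For Mobp (chr9:120149492-120149691, plus strand) and Cnp (chr11:100574689-100574888, plus strand) the last 50 bases before the RefSeq start were left out, because another annotation places exons there. For Mag (chr7:30914923-30915172, minus strand) all 250 bases before the most upstream start are given.
Mobp: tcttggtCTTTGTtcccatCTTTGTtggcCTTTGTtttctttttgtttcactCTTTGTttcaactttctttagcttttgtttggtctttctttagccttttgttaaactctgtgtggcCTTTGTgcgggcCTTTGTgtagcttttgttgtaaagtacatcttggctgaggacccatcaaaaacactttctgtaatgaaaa
Cnp: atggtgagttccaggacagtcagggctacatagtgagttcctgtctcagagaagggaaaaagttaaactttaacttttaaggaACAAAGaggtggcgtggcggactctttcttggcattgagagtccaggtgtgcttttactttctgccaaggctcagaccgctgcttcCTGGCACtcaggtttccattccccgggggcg
Mag: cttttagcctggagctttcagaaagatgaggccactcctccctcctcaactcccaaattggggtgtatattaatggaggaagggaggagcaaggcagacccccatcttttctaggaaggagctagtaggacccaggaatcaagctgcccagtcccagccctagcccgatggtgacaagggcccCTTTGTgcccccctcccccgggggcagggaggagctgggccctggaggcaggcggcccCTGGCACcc

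Mobp held 6 copies of the SOX letters between positions -243 and -120 from its start. Cnp held a SOX match at position -167 and a MYRF match at -81, and Mag held the same pair at -67 and -9 from its most upstream start. Counted from another RefSeq start of Mag, that pair lies at -126 and -68. Over the 250 bases before each start, a SOX match was found in 5 of the 8 genes (Cnp, Ermn, Mag, Mobp and Opalin), against 28.2% of all 27025 genes in the table. A MYRF match was found in 3 of the 8 (Cnp, Mag and Mog), against 6.79% of all genes. The TATA box letters TATAAA were found in 0 of the 8, against 14.3% of all genes. These matches describe the letters in the windows and show no binding, and their part in the shared variation among mice was not tested.

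None of the 9 genes passed the test between the genotypes. At an adjusted p under 0.05, 1009 of 14897 genes (6.77%) were called, 494 higher (3.32%) and 515 lower (3.46%) in mice labelled LPAR2-/-. The 9 myelin genes held 0 calls, 0 at an unadjusted p under 0.05 (22.4% of all genes) and 0 by DESeq2 or limma. Their lowest adjusted p was 0.628, for Opalin. The values of both genotypes overlapped for each of the 9, as they did for all but 264 of the genes tested (1.77% did not overlap). Fitted log2 fold changes (LPAR2-/- minus WT) were above 0 for 8 genes and below 0 for Cnp, with a median of 0.17 beside a median of 0.0029 over all genes tested. Without mouse 3 labelled LPAR2-/-, the highest of all 14 mice for each of the 9 genes, all 9 were below 0. Leaving out the highest mouse lowers each fold change by construction. With 9 genes that move together, the signs of their fold changes are not 9 separate observations. In bulk RNA, fewer cells of a type and less RNA per cell cannot be told apart.

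Mbp encodes myelin basic protein, which holds the inner faces of the sheath membrane together and was the most abundant of the 9 by counts. The gene spans chr18:82475123-82585637 (mm10, plus strand), which takes in the upstream exons of the golli transcripts that other cells make too, and the counts do not separate transcripts. In WT mice its level ranged from 583 to 935 CPM with a median of 709, and in those labelled LPAR2-/- from 500 to 1810 CPM with a median of 675. One mouse, number 3 labelled LPAR2-/-, stood at 1810 CPM and the next highest, WT mouse 7, at 935 CPM. Group means were 734 ± 118 CPM in WT and 824 ± 456 CPM in LPAR2-/- (SD, n = 7 each). The log2 fold change of 0.17 (SE 0.255, 95% confidence interval -0.38 to 0.71) did not pass the edgeR test (adjusted p = 0.750), and the exact two-sided permutation test gave p = 0.901. The interval spans a fold change of 0.769 to 1.64. Mobp, myelin-associated oligodendrocyte basic protein, is a second small basic protein of compact myelin. Its level ran from 47.1 to 96.5 CPM (median 64.4) in WT and from 37.9 to 193 CPM (median 57.5) in LPAR2-/-. The mean was 67.4 ± 16.7 CPM against 75.5 ± 55.1 CPM, a log2 fold change of 0.17 (SE 0.341, edgeR adjusted p = 0.814). Of the 9 genes Mobp had the widest range among the labelled LPAR2-/- mice, 5.10-fold from lowest to highest, whereas in WT mice the range was 2.05-fold.

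**Figure D1:**
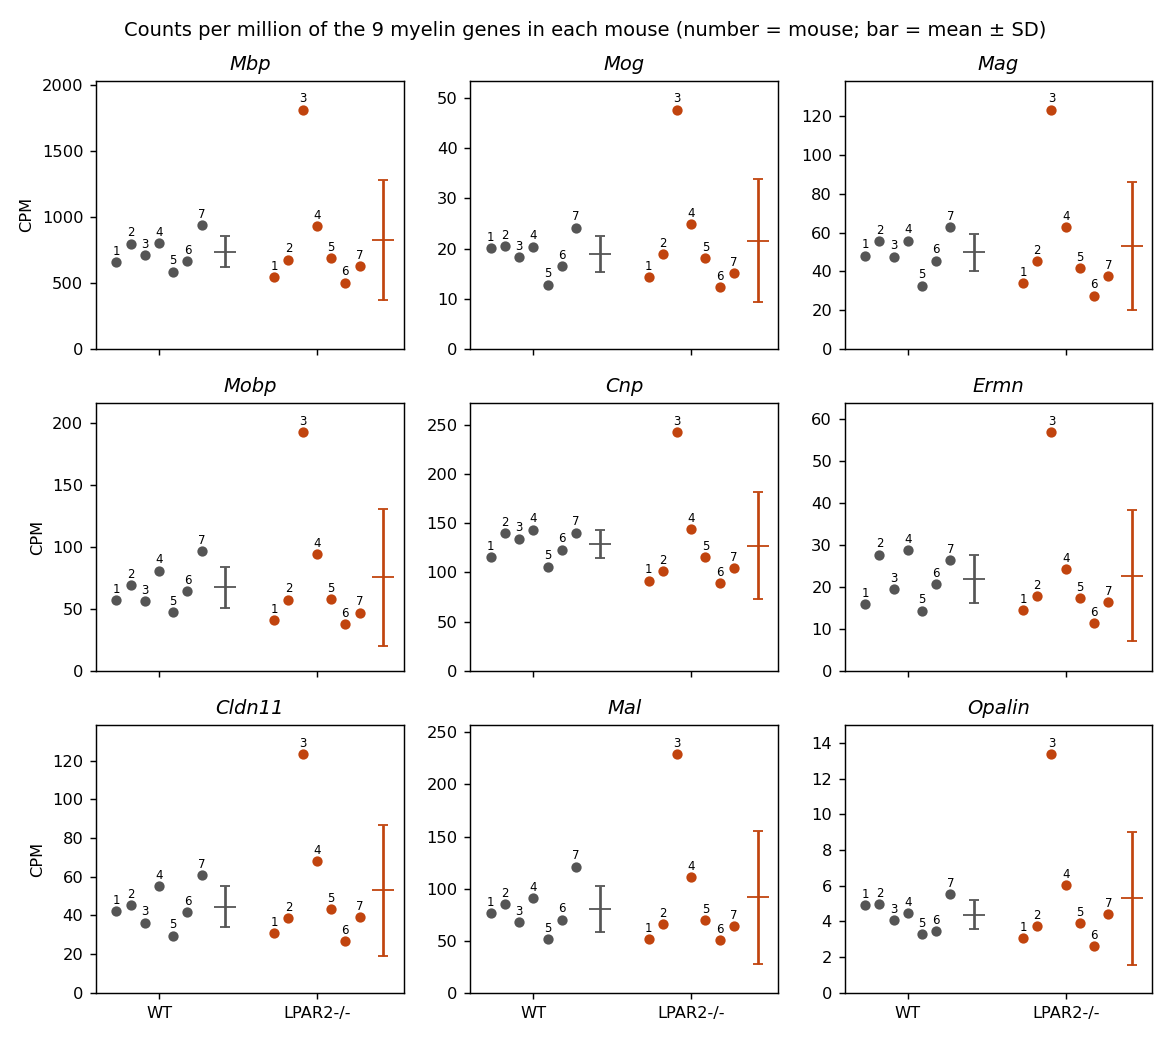
CPM (y axis, from 0, each gene on its own scale) of the 9 myelin genes in 7 WT mice (grey) and 7 mice labelled LPAR2-/- (orange); each point is a mouse with its number, and the bar beside it is the mean ± SD. Mouse 3 labelled LPAR2-/- lies above the other 13 mice in every panel, from 13.4 CPM for Opalin to 1810 CPM for Mbp.

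Mog and Mag are adhesion proteins of the immunoglobulin family, Mog on the outermost face of the sheath and Mag on the inner face next to the axon. Mog ranged from 12.8 to 24.2 CPM (median 20.1) in WT mice and from 12.2 to 47.7 CPM (median 18.2) in those labelled LPAR2-/-. Its log2 fold change was 0.20 (SE 0.271, edgeR adjusted p = 0.716). For Mag the WT mice spanned 32.6 to 62.9 CPM (median 48.1) and the labelled LPAR2-/- mice 27.5 to 123 CPM (median 41.5). The fitted log2 fold change of Mag was 0.11 (SE 0.293, edgeR adjusted p = 0.875). For both genes the median was lower and the mean higher in the labelled LPAR2-/- mice, with 21.6 ± 12.2 against 18.97 ± 3.60 CPM for Mog and 53.1 ± 32.9 against 49.7 ± 9.70 CPM for Mag. The same opposition of mean and median held for 8 of the 9 genes, Cnp being the exception, with both lower.

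Cnp encodes a phosphodiesterase of the cytoplasmic channels that stay open within the sheath, and Ermn encodes ermin, a cytoskeletal protein of the oligodendrocyte. Cnp was the steadiest of the 9, at 106 to 144 CPM (median 134) in WT mice and 89.0 to 243 CPM (median 104) in those labelled LPAR2-/-. Its log2 fold change was -0.02 (SE 0.201, 95% confidence interval -0.45 to 0.41, edgeR adjusted p = 0.972; exact two-sided permutation test p = 0.659). Ermn ranged from 14.4 to 28.8 CPM (median 20.6) in WT and from 11.5 to 57.0 CPM (median 17.4) in LPAR2-/-. The log2 fold change of Ermn was 0.07 (SE 0.324, edgeR adjusted p = 0.935). Among WT mice Ermn varied most, with an SD of 0.40 on the log2 CPM scale, and Cnp least, with 0.17.

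Cldn11, a claudin, seals the layers of the sheath with tight junctions. It ranged from 29.6 to 60.9 CPM (median 42.3) in WT mice and from 26.7 to 123 CPM (median 39.3) in the labelled LPAR2-/- mice, with a log2 fold change of 0.26 (SE 0.312, edgeR adjusted p = 0.674). Mal is a membrane protein of lipid-rich domains that takes part in sorting proteins to the sheath. Mal showed the widest range among WT mice, from 51.5 to 121 CPM (median 76.5), and ran from 50.6 to 229 CPM (median 65.7) in the labelled LPAR2-/- mice, with a log2 fold change of 0.20 (SE 0.330, edgeR adjusted p = 0.778). Opalin, a small transmembrane protein made by oligodendrocytes, was the least abundant of the 9, at 3.27 to 5.54 CPM (median 4.45) in WT and 2.63 to 13.4 CPM (median 3.89) in LPAR2-/-. Opalin had the largest fitted difference, 0.29 on the log2 scale (SE 0.315, 95% confidence interval -0.38 to 0.97, edgeR adjusted p = 0.628). It rested on 44 to 309 counts per mouse, so that counting alone gives a coefficient of variation of up to 15.1%, against at most 1.09% for Mbp. The exact two-sided permutation p-values of all 9 genes lay between 0.659 and 0.959, without adjustment. Over the 9 genes the 95% intervals reached down to a fold change of 0.646 (Ermn) and up to 1.95 (Opalin), and that of Cnp was the narrowest, from 0.731 to 1.33.

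**Figure D2:**
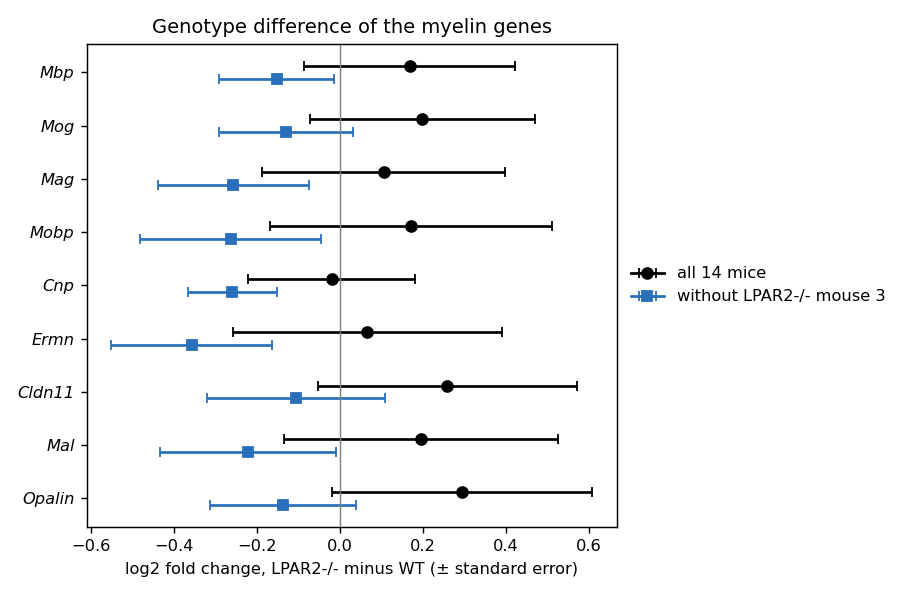
Fitted log2 fold change, LPAR2-/- minus WT, of each myelin gene (points, with ± 1 standard error as bars) in all 14 mice (black circles) and without mouse 3 labelled LPAR2-/- (blue squares). With all mice the values run from -0.02 (Cnp) to 0.29 (Opalin), and without that mouse from -0.36 (Ermn) to -0.11 (Cldn11).

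For 8 of the 9 genes the sign of the genotype difference turned when mouse 3 labelled LPAR2-/- was left out, and Cnp was below 0 with and without it. Its levels were 2.36-fold (Cnp) to 3.69-fold (Mobp) those of the median of the other 6 mice labelled LPAR2-/-, and 1.69-fold (Cnp) to 2.22-fold (Opalin) those of the second highest mouse of the 14. Over all genes tested, 1500 (10.1%) had their highest value in that mouse. Without it, the log2 fold changes of the 9 genes ran from -0.36 for Ermn (SE 0.193, edgeR adjusted p = 0.274) to -0.11 for Cldn11 (SE 0.214, adjusted p = 0.804), and the edgeR test again called 0 of them, where 7.43% of all genes were called. Cnp (log2 fold change -0.26, SE 0.108, edgeR adjusted p = 0.154) was then the 1 gene at an unadjusted edgeR p under 0.05, which 24.5% of all genes reached. Because the mouse left out was singled out as the highest for these same 9 genes, lower fold changes and a narrower spread follow by construction. The library of mouse 3 also had the highest total count, 23258949, and its Lpar2 level of 10.1 CPM lay within the 8.20 to 12.3 CPM of its group. Its 6 markers of the meninges summed to 42.7 CPM, the lowest of the 7 in its group, where the others reached 237 CPM. Its 6 markers of the dentate gyrus summed to 843 CPM, lowest of all 14 mice, and its 5 markers of CA3 to 413 CPM, highest of its group. The part of depth or of dissection in the myelin values was not tested.

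Among the remaining 13 mice, 6 of the 7 WT mice stood above 5 of the 6 labelled LPAR2-/-, with mouse 4 labelled LPAR2-/- and WT mouse 5 outside that order. Mouse 3 and these exceptions were set aside after their values had been seen, so that the order is a description and carries no test. Averaged over the 9 genes on the log2 CPM scale, mouse 3 labelled LPAR2-/- had 7.03 and was followed by mouse 4 of the same group (6.04), WT mouse 7 (6.03), WT mouse 4 (5.85) and WT mouse 2 (5.79). WT mice 1, 3 and 6 came next, between 5.52 and 5.55, and then mice 5 (5.49), 2 (5.45) and 7 (5.36) labelled LPAR2-/-. The lowest were mouse 6 (4.94) and mouse 1 (5.12) labelled LPAR2-/- and WT mouse 5 (5.15). Group means were 5.63 ± 0.29 in WT and 5.63 ± 0.70 in LPAR2-/- (SD, n = 7 each), with a difference of 0.0014, and the latter was 5.40 ± 0.37 without mouse 3. Summed over the 9 genes, the level ran from 880 to 1473 CPM in WT mice and from 758 to 2840 CPM in the labelled LPAR2-/- mice. The same few mice led or trailed for nearly every gene. Of the WT mice, mouse 5 was lowest for all 9 genes and mouse 7 highest for all but Cnp and Ermn, which were highest in mouse 4. Of the labelled LPAR2-/- mice, mouse 6 was lowest and mouse 4 second highest for all 9.

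Spread among mice was larger for the myelin genes than for most genes. In WT mice the SD of log2 CPM had a median of 0.30 over the 9 genes and of 0.13 over all genes tested, and single myelin genes stood between the 64.4th (Cnp) and the 92.1st (Ermn) percentile of all SDs. In mice labelled LPAR2-/- the median SD was 0.75 over the 9 genes and 0.14 over all genes, with percentiles from 94.5 (Cnp) to 98.8 (Mobp). Without mouse 3 the median of the 9 was 0.40 and the percentiles lay between 78.3 and 93.8. The spread of the 2 genotypes was not compared by a test. The biological coefficient of variation that edgeR fitted over both genotypes, mouse 3 included, was 25.9% (Cnp) to 43.2% (Mobp). Counting alone gave 9.58% to 13.4% per WT mouse for Opalin, whose SD in WT was 0.27 on the log2 scale.

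**Figure D3:**
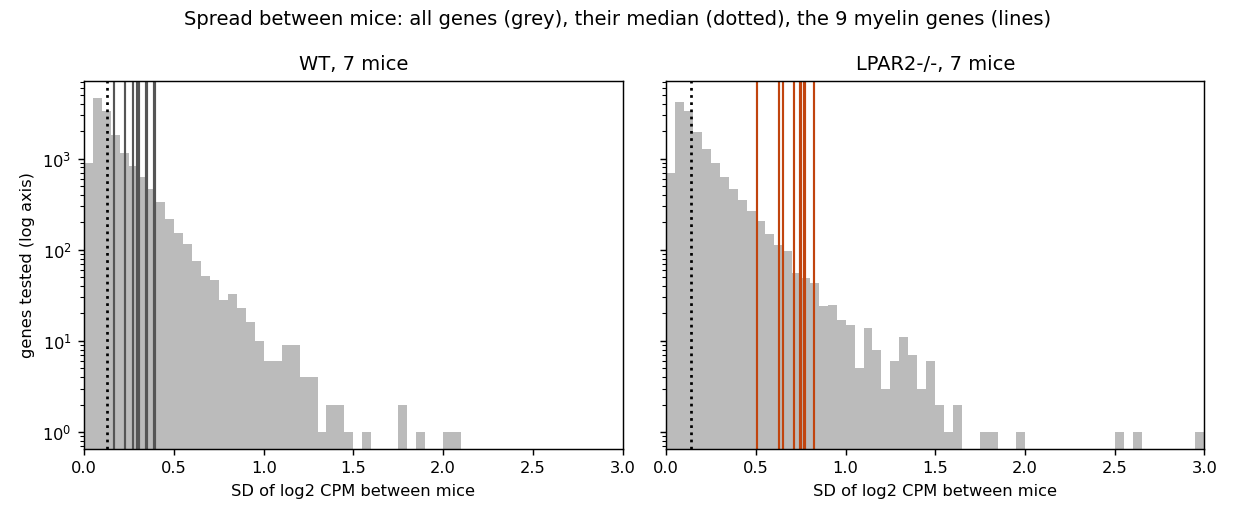
Number of genes tested (y axis, log scale) by the SD of log2 CPM between the 7 mice of a genotype (x axis) for WT (left) and LPAR2-/- (right); the dotted line is the median of all genes and the solid lines are the 9 myelin genes. The solid lines lie between 0.17 and 0.40 in WT and between 0.51 and 0.82 in LPAR2-/-, right of the medians of 0.13 and 0.14.

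The 9 genes varied in part through a common level. Relative to the mean of the other 8 genes, the median SD of a gene was 0.12 in WT and 0.10 in LPAR2-/- on the log2 scale. Cnp was an exception in WT, where its SD relative to the others, 0.18, was no smaller than its own SD of 0.17, and for Opalin the relative SD was 0.18 against 0.27. Within WT mice, Pearson's r between pairs of the 9 genes ran from 0.57 (Ermn and Opalin) to 0.97 (Mog and Mag), with a median of 0.88, and Spearman's rho from 0.54 to 1. Of 36 pairs in WT mice, 32 passed for r and 27 for rho at an adjusted p under 0.05, by exact permutation over the 5040 pairings of 7 mice and Benjamini-Hochberg over the 72 tests of each kind. The lowest WT pair, Ermn and Opalin, had p = 0.180 for r and p = 0.236 for rho in that exact test. In the labelled LPAR2-/- mice r ran from 0.970 to 0.997 and rho from 0.86 to 1, and all 36 pairs passed for both. With the 2 mice farthest from the median left out, r lay between 0.73 and 0.99 (median 0.93) in LPAR2-/- and between 0.11 (Mobp and Opalin) and 0.97 (median 0.78) in WT. It was lower for some pairs, such as Mobp and Opalin in WT, and higher for others, such as Cnp and Opalin in WT (0.62 with all 7 mice and 0.82 without those 2). All values of a mouse come from 1 library, and the pairs share genes.

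Per kilobase of exon the order of the 9 genes was nearly the same in every mouse. The mean level over 14 mice, in CPM divided by the exon length in kilobases (RPKM), was 116 for Mbp, 47.8 for Cnp, 31.0 for Mal, 26.0 for Cldn11, 21.2 for Mag, 16.1 for Mobp, 11.9 for Mog, 6.33 for Ermn and 5.43 for Opalin. Each gene exceeded the next in all 14 mice, except that Cldn11 exceeded Mag in 13 and Ermn exceeded Opalin in 12.

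Of the 14888 other genes tested, the 10 whose level followed the 9 most closely were picked by correlation, and 8 of them are described here. After removal of the genotype means, log2 CPM correlated with the mean of the 9 over 14 mice at r = 0.985 for Ttyh2, a chloride channel family member, and at 0.958 over the 13 mice without mouse 3 labelled LPAR2-/-. Further genes were Adamts4, a secreted protease (0.982), Gjb1, a gap junction protein (0.974), Trf, the iron carrier transferrin (0.973), and Fa2h, which hydroxylates the fatty acids of myelin lipids (0.972). The septin Sept4 and the transcription factor Myrf stood at 0.971 and Tmem88b at 0.970. These correlations share libraries and rest in part on mouse 3: 50 genes outside the 9 had r over 0.9 with it and 16 without it. None of the 8 was called between the genotypes (edgeR adjusted p from 0.747 for Myrf to 0.999 for Trf).

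The other genes of the oligodendrocyte lineage were described by 6 lists of 70 genes, of which 68 were tested. The edgeR test called 0 of the 68 higher and 2 lower in mice labelled LPAR2-/-, beside 6.77% of all genes in both directions, and 12 had an unadjusted p under 0.05, beside 22.4% of all genes. The 2 were Gpr17, a receptor that marks premyelinating oligodendrocytes, and Elovl1, an enzyme that lengthens very long fatty acids. Gpr17 lay at 43.0 to 73.7 CPM in WT and at 34.5 to 47.9 CPM in LPAR2-/-, and fell by 0.66 on the log2 scale (SE 0.109, edgeR adjusted p = 0.00287). Elovl1 lay at 16.4 to 24.8 CPM in WT and at 8.96 to 16.4 CPM in LPAR2-/-, and fell by 0.56 (SE 0.112, edgeR adjusted p = 0.00807). Both ranges overlapped between the genotypes at their ends. Each call survived the omission of any of the 14 mice.

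Of 16 further sheath proteins, 9 had a fold change above 0 and 7 below, with 0 calls and a median log2 fold change of 0.03. Plasmolipin (Pllp, 0.10), Tspan2 (0.13) and Cd9 (0.06), all membrane proteins with several spans, had small log2 fold changes with edgeR adjusted p of 0.640, 0.779 and 0.668. Of 9 enzymes of myelin lipids, Elovl1 alone was called. Ugt8a, which makes galactosylceramide, had a log2 fold change of -0.09, Gal3st1, which adds sulphate to it, of 0.05, and Aspa, which frees acetate for lipid synthesis, of 0.33, with adjusted p of 0.485 or more. Of 21 other genes of mature oligodendrocytes tested, 16 had a fold change above 0 and 5 below, with 0 calls. Trf (0.0013), Car2, a carbonic anhydrase (-0.04), Gsn, the actin-severing gelsolin (0.39, edgeR adjusted p = 0.144), and Cryab, a small heat shock protein (-0.10), come first in list order, not by size. The log2 fold changes of that list ran from -0.25 (Ndrg1) to 0.70 (Apod, SE 0.262, edgeR adjusted p = 0.129).

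Of 9 transcription factors of the lineage, 2 had a fold change above 0 and 7 below, with 0 calls. Olig1 (-0.11), Olig2 (-0.24, edgeR adjusted p = 0.123), Sox10 (-0.05) and Sox8 (0.07) did not pass. Of 7 premyelinating genes Gpr17 alone was called. Bmp4, a growth factor, had a log2 fold change of 0.65 (SE 0.277, edgeR adjusted p = 0.176) on 23 to 90 counts per mouse, while Neu4, a sialidase, stood at -0.23, Enpp6, a phosphodiesterase, at 0.14 and Itpr2, a calcium channel, at -0.05. Of 6 precursor genes 4 had a fold change above 0 and 2 below, with 0 calls. Pdgfra, the receptor that drives precursor growth, had a log2 fold change of 0.17 (SE 0.0621, edgeR adjusted p = 0.106), and Cspg4, Vcan and Lhfpl3 stood at 0.03, -0.09 and -0.07. Without mouse 3 labelled LPAR2-/-, 5 of these 68 lineage genes were called lower by edgeR, where 7.43% of all genes were called in both directions and 51.2% of those were higher. They were Gpr17 (-0.70, adjusted p = 0.00272), Elovl1 (-0.59, adjusted p = 0.00762), Gjc3, a gap junction protein (-0.50, adjusted p = 0.0365), Olig2 (-0.31, adjusted p = 0.0201) and Sept8, a septin (-0.21, adjusted p = 0.0107). Gjc3, Olig2 and Sept8 were highest of their group in that mouse, which was singled out by its myelin values. Leaving it out lowers their group means by construction, so that these added calls are a description only.

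The height of mouse 3 labelled LPAR2-/- differed between and within the gene lists of the lineage. All 9 myelin genes had their highest value of the 14 mice there, at a median of 3.18 times the median of the other 6 mice of the group. So did 15 of 16 further sheath proteins (median 2.03), 17 of 21 other mature genes (2.04) and 6 of 9 lipid enzymes (1.57). Fewer genes of the other lineage lists did, with 5 of 9 transcription factors (1.45), 3 of 7 premyelinating genes (1.27) and 0 of 6 precursor genes (1.10). Over all genes the share with the highest value there was 10.1%. Ratios of single genes ran from 2.36 to 3.69 for the 9 myelin genes. They ran from 1.13 to 4.12 for the further sheath proteins and from 0.603 to 3.81 for the premyelinating genes. Of the markers of other brain cells, 1 of 8 were highest there for neurons (median 1.17), 3 of 6 for astrocytes (1.14), 0 of 6 for microglia (1.06) and 0 of 6 for the endothelium (0.912). Markers of the meninges (0 of 6) lay at a median of 0.261 times the rest of the group, those of the dentate gyrus (0 of 6) at 0.730 and those of CA3 (1 of 5) at 1.34. Because the mouse was singled out by its myelin values, these figures are a description and carry no test.

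**Figure D4:**
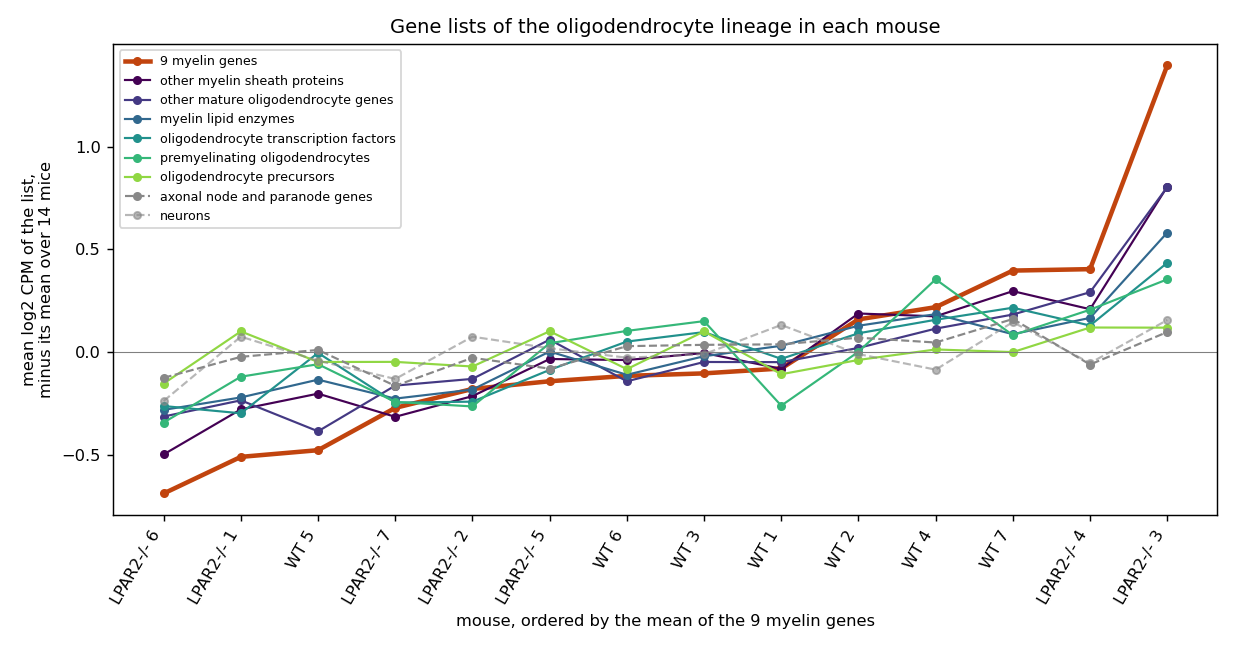
Mean log2 CPM of each gene list minus its mean over the 14 mice (y axis), with the mice ordered along the x axis by the mean of the 9 myelin genes (thick line); coloured lines are lists of the oligodendrocyte lineage, and dashed grey lines are axonal and neuronal genes. In mouse 3 labelled LPAR2-/-, at the right, the 9 myelin genes lie 1.40 above their mean, the further sheath and mature genes 0.81 and 0.80, and the precursor genes 0.12.

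Schwann cells, which make the myelin of peripheral nerves, left little trace. Their markers Ncmap (3 to 16 counts per mouse) and Dhh (2 to 11) were too low to be tested, and Prx, at 56 to 107 counts, had a log2 fold change of -0.0059. Across the lists of other cells and regions, the summed levels of neuronal markers were 5996 to 7448 CPM in WT and 5760 to 7298 CPM in LPAR2-/-, and those of astrocyte markers 2368 to 2600 and 2205 to 2641 CPM. The 6 markers of the meninges summed to 33.9 to 164 CPM in WT and 42.7 to 237 CPM in LPAR2-/-, with 5 above 0 in fold change and Lum, a proteoglycan of connective tissue, called higher (0.54, edgeR adjusted p = 0.0132). Of 6 choroid plexus markers 3 were tested, and these 3 summed to 28.3 to 33.0 CPM in WT and 25.5 to 278 CPM in LPAR2-/-, the upper end coming from mouse 2, without which the highest was 49.2 CPM. The part of these in the myelin values was not tested.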

How the data were processed

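Total RNA of 14 mice, from tissue labelled hippocampus, was sequenced by the authors (Illumina TruSeq with Ribo-Zero depletion). Per the submitters' processing notes and the study's methods, the reads went through cutadapt 1.18 for adapters, STAR for alignment to mm10 and featureCounts 1.6.3 for counting on exons. Per the file header, counting used the reverse strand and left out reads that matched several places or genes. The deposited values used here are raw counts per gene. A second deposited table of normalized values was not used here. In R 4.3.3, edgeR 4.0.16 (filterByExpr, TMM, robust quasi-likelihood test, no covariates) compared 7 mice with 7, with Benjamini-Hochberg adjustment over 14897 genes and a threshold of 0.05. CPM on the log2 scale used a prior count of 2, and RPKM the deposited exon length. Exact permutation tests used all 3432 arrangements of the mice (smallest p 0.000583). Intervals of counts cover counting error only. The myelin genes and all lists were chosen with earlier results of these data known. Lineage genes were named if past the threshold, with up to 4 others in list order and the genes most alike; some genes are not reported here. Gjc3 and Sept8 were added for their calls without mouse 3, and Ndrg1 and Apod as the ends of their list. Klk6 was too low to test, and 2 listed symbols, Zfp24 and Epb41l3, were not matched. The alternatives were DESeq2 1.42.0, limma 3.58.1 on log2 normalized counts plus 1, other scalings, other filters, the mouse number as block and each mouse left out. The procedures were tested on simulated data with 200 changed genes. Among 42 pairs of libraries within a genotype none were copies, the smallest ratio of chi-square to degrees of freedom being 3.35. Samples were grouped by their labels, and no sequencing batch is given in the sources used here.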

Additional observations from a re-analysis of the deposited data

Results flagged for a closer look

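In 16 of 40 groups of 7 mice examined, 1 mouse stood apart from the other 6 by Dixon's criterion, where chance gives about 1 in 20. In all 16 it was mouse 3 labelled LPAR2-/-, with the highest value, and the 16 genes share that library and are not independent. The gap to the next mouse took 0.573 (Cldn11) to 0.730 (Tmem88b) of the group's range, above the critical value for 7 values. All 9 myelin genes were among them, at 1810 CPM for Mbp, 47.7 CPM for Mog, 123 CPM for Mag, 193 CPM for Mobp, 243 CPM for Cnp, 57.0 CPM for Ermn, 123 CPM for Cldn11, 229 CPM for Mal and 13.4 CPM for Opalin. Of the 8 most alike genes examined, 7 were among them, at 33.7 CPM for Ttyh2, 15.03 CPM for Adamts4, 7.41 CPM for Gjb1, 192 CPM for Trf, 29.8 CPM for Fa2h, 60.1 CPM for Myrf and 55.3 CPM for Tmem88b. Those genes were picked for their likeness to the 9 and add no separate support. In the WT mice, 0 of these genes had a mouse that stood apart in this way.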

How the results depend on the processing

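The count of myelin genes called was 0 under every alternative run (lowest adjusted p 0.154, for Cnp without mouse 3 labelled LPAR2-/-). Their median log2 fold change, 0.17, lay between -0.22 (without mouse 3 labelled LPAR2-/-) and 0.29 when 1 mouse was left out. This median was 0.021 with limma and 0.015 with the mouse number as a block. The signs of single genes were not stable. Cnp reversed to 0.0017 with upper quartile scaling. With limma, Ermn (-0.10), Mag (-0.055) and Mobp (-0.040) reversed. When 1 mouse was left out, the log2 fold changes ran from -0.15 to 0.26 for Mbp, -0.13 to 0.30 for Mog, -0.26 to 0.22 for Mag, -0.26 to 0.29 for Mobp, -0.26 to 0.050 for Cnp, -0.36 to 0.18 for Ermn, -0.11 to 0.37 for Cldn11, -0.22 to 0.32 for Mal and -0.14 to 0.41 for Opalin. Each lowest value came without mouse 3 labelled LPAR2-/-. The median SD of the 9 genes ranged from 0.40 (without that mouse) to 0.81 in LPAR2-/- and from 0.23 to 0.33 in WT. Over all genes the number called, 1009, was 1388 with DESeq2 and between 858 and 1029 with the other scalings, filters and limma. With 1 mouse left out it ranged from 567 (without WT mouse 2) to 1385 (without WT mouse 1), with 611, 669, 596 and 654 without mouse 1 labelled LPAR2-/- and WT mice 4, 5 and 6, which test fewer mice. Calls in the other lineage lists ranged from 2 to 5, the latter without mouse 3 labelled LPAR2-/-. With upper quartile scaling, 62.0% of the called genes were higher against 49.0% with TMM.

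Mice of the same number were not pairs, with correlations of -0.33 to 0.31 after removal of the genotype means, 3 of 7 over 0.1 and 2 of 7 WT mice closest to their own number. With the mouse number as a block, 586 genes were called, 0 of the 9 among them, and the pairing turned Ermn to -0.094, Mag to -0.046 and Mobp to -0.041. With that block the edgeR calls of Lum (adjusted p = 0.0534), Nrcam (0.0661) and Kcna2 (0.114) were lost. The cause of these shifts was not tested.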

Other observations

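Of 11 genes of the axonal node and paranode tested, the axonal side of the contact with the sheath, 9 had a fold change below 0 in mice labelled LPAR2-/- and 2 above, with 2 called lower, where 3.46% of all genes were called lower, and a median log2 fold change of -0.14. Nrcam, a cell adhesion protein of the node, fell by 0.14 (SE 0.0337, edgeR adjusted p = 0.0232), and Kcna2, a potassium channel beside the paranode, fell by 0.21 (SE 0.0620, edgeR adjusted p = 0.0486). The call of Nrcam held in 11 of the 14 fits that left out a mouse and that of Kcna2 in 2 of 14. The edgeR call of Kcna2 was also lost with DESeq2 size factors (adjusted p = 0.0507), with the upper quartile (0.0846), without a filter (0.0539) and with at least 10 counts in every library (0.0512). These genes are also made throughout neurons, and 1 of the 11 was highest in mouse 3 labelled LPAR2-/-, at which the 9 myelin genes peaked.

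Lpar1 and Enpp2 were singled out after their values had been seen, because they belong to the pathway of lysophosphatidic acid. Lpar1, another receptor for this lipid and a gene of mature oligodendrocytes, lay at 7.87 to 17.1 CPM in WT and 11.4 to 26.4 CPM in LPAR2-/- (log2 fold change 0.39, SE 0.205, edgeR adjusted p = 0.274). The highest Lpar1 value, 26.4 CPM, was that of mouse 3 labelled LPAR2-/-, at 2.13 times the median of the others of its group. Enpp2, the secreted enzyme that makes the lipid, lay at 57.9 to 91.9 CPM in WT and 58.0 to 178 CPM in LPAR2-/- (log2 fold change 0.37, SE 0.245, edgeR adjusted p = 0.399). Enpp2 is also abundant in the choroid plexus, whose markers varied among the libraries labelled LPAR2-/-. The part of the choroid plexus in the Enpp2 values was not tested.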
